A study of Mus musculus with 40 samples.

Results

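The 48 genes described here encode nuclear subunits of oxidative phosphorylation complexes II to V and an inhibitor of complex V. They were chosen by symbol alone from the 40213 gene symbols of the expression table: those beginning with Atp5 and a letter, with Cox4 to Cox8 or with Uqcr, the 4 genes Sdha to Sdhd, and Atpif1. A symbol marked as a pseudogene, Cox7c-ps1, was left out. Subunits with other symbols, such as Cyc1 and Ndufa4, are not among the members. Complex II had 4 members, complex III 8, complex IV 18 and complex V 18, the inhibitor Atpif1 included. After low counts were removed, 45 members could be tested in the midbrain, 46 in the spinal cord and 46 across both tissues.

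Poly(A)-selected RNA from the midbrain and spinal cord of male C57BL/6N mice, labelled 8 weeks old, was sequenced in 40 libraries, 4 for each of 5 groups per tissue. Con received saline. MPTP-Veh received MPTP, a toxin of dopaminergic neurons, at 20 mg/kg in 4 intraperitoneal injections 2 h apart, and saline at the acupoint GB34. In MPTP-SU, the herbal pharmacopuncture SUEHP was given in 4 injections, beginning 1 week after MPTP. MPTP-SU+S and MPTP-SU+T received MPTP and SUEHP with the CB1 antagonist SR141716A (spelled SR141714A in the labels, 3 mg/kg) or the PPARγ inhibitor T0070907 (5 mg/kg). All groups other than Con thus carried MPTP, and SUEHP was not given without it. The labels do not say whether the 4 libraries of a group came from separate animals, so the p-values measure only the spread between these libraries.

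The complexes sit in the inner mitochondrial membrane. Complex II passes electrons from succinate to ubiquinone, complex III passes them on to cytochrome c, and complex IV reduces oxygen with them. Complex V uses the proton gradient that complexes III and IV help to build to make ATP. Complex II is encoded entirely in the nucleus, whereas complexes III, IV and V combine nuclear subunits with cores made in the mitochondrion. Neurons, dopaminergic neurons included, draw heavily on this system, and the active metabolite of MPTP blocks complex I just upstream of it.

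Promoter sequence is shown for 4 of the members that fell most clearly after SUEHP in the midbrain, since shared motifs before transcription starts are a known feature of this gene group. RefSeq windows of 300 bases (250 before the start, build GRCm38.p6) were matched to 37 of the 48 members, some with more than 1 window, 40 in all. Both strands were searched. The NRF1 motif GCATGCGC was in 7 of these members (18.9%) and in 3.05% of all 27025 genes with a window, and the ETS (GABP) motif CCGGAAG was in 13 (35.1%) against 9.93%. The YY1 motif AANATGGCG was in 4 (10.8%) against 2.76%, whereas the SP motif GGGCGG was in 15 (40.5%) against 38.2%. These matches are a description of letters and not of binding. All 4 genes lie on the minus strand, and the sequences read 5′ to 3′ along the gene, with motif matches in capitals.
Atpif1, chr4:132535415-132535664, with a YY1 and an SP match: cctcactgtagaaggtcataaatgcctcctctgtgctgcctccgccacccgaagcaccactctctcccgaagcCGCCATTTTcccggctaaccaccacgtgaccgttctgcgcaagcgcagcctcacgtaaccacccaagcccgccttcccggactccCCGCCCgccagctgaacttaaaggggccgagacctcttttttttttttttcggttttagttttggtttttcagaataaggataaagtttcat
Uqcrh, chr4:116075072-116075320, with an ETS match: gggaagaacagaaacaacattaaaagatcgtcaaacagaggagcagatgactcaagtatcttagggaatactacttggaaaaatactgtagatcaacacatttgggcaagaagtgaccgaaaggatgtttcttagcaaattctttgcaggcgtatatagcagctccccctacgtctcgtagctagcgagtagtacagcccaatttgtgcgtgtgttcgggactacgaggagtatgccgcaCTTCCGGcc
Atp5h, chr11:115419945-115419963, the ETS match with its flanks: agagaaCTTCCGGcaactc
Atp5k, chr5:108434434-108434455, overlapping NRF1 matches with their flanks: actgcgGCGCATGCGCctttct
The Atpif1 start in RefSeq lies 1755 bases before the first coding transcript start of GENCODE, so its window may not be the promoter of the main transcript. For Atp5h and Atp5k, the first GENCODE coding start instead lies before the RefSeq start. The Atp5h match lies after that GENCODE start and the Atp5k matches lie at it, so none lies wholly before both starts.

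Levels differed widely between members. Levels within a gene are given as CPM, counts scaled to a common library total by the trimmed mean of M values (TMM). Between genes they are compared as CPM per kilobase of principal transcript (CPM per kb). On that scale, Atp5b, the catalytic β subunit of ATP synthase, was the highest in the midbrain with a median over 20 libraries of 500 CPM per kb. Cox4i1, the largest nuclear subunit of cytochrome c oxidase, followed with 478 CPM per kb. In complex II, the flavoprotein Sdha had 136 CPM per kb, the iron-sulphur subunit Sdhb 105, and the membrane anchors Sdhd and Sdhc 39.4 and 25.8. The order of Sdhd and Sdhc rests on annotated lengths, as do all comparisons between genes here.

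Within each set of alternative isoforms the common form dominated. Cox4i2, known from lung and from oxygen sensing, had 2.89 CPM per kb. The heart and muscle forms Cox6a2, Cox7a1 and Cox8b had 2.98, 4.41 and 0.688 CPM per kb, against 298 for Cox6a1, 162 for Cox7a2 and 352 for Cox8a. The testis forms Cox6b2 and Cox7b2 had 5.53 and 0.291, against 214 for Cox6b1 and 207 for Cox7b, and Cox8c had no count in any midbrain library. Cox7a2l, a relative of Cox7a2, had 125 CPM per kb. The 3 genes of the c ring encode the same mature protein: Atp5g3 had 249 and Atp5g2 61.1 CPM per kb, while Atp5g1 had 15.0 over a principal transcript of 4715 bases and 118 over one of 596 bases. Several of these genes have processed pseudogenes, so reads may be divided between copies and the levels are uncertain to that extent.

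**Figure D1:**
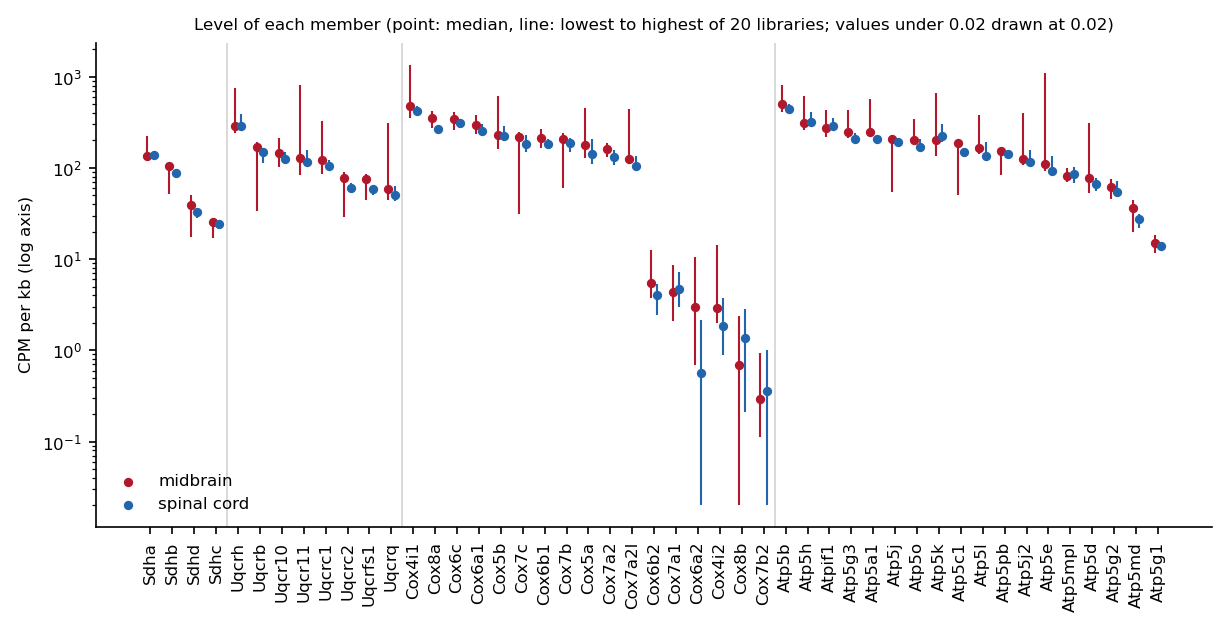
Level of each member in the midbrain (red) and the spinal cord (blue), in CPM per kb of principal transcript on a log axis, grouped by complex, without Cox8c. Points are medians and lines run from the lowest to the highest of 20 libraries per tissue, with values under 0.02 drawn at 0.02. The isoforms Cox4i2, Cox6a2, Cox6b2, Cox7a1, Cox7b2 and Cox8b lie far below the other members in both tissues.

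The midbrain libraries held 11958200 to 16639823 counts and the spinal cord libraries 14642808 to 16615378. The tissues matched their labels: 8 of 10 dopaminergic markers were higher in the midbrain, and 10 of 10 spinal position genes were higher in the spinal cord. Among the libraries, MPTP-Veh replicate 4 of the midbrain stood apart. It had the lowest total, a mitochondrially encoded share of 1.35% (9.92% to 17.5% in the other midbrain libraries), an oligodendrocyte marker sum of 35997 CPM (10537 to 15218 elsewhere) and a red blood cell marker sum of 2529 CPM (213 to 402 elsewhere). Its members were scattered in both directions: 15 were over 2-fold higher and 7 over 2-fold lower than the median of MPTP-Veh replicates 1 to 3. The higher ones had a median GC content of 50.2% and the lower ones 44.4%, beside 50.2% for all tested members. Counts and called members of the midbrain comparisons with MPTP-Veh are therefore given with and without this library. The midbrain groups share a common estimate of the spread, so this library also enters the p-values of the other midbrain comparisons. Those were fitted without this library only where the compared groups were fitted alone. In bulk tissue, fewer cells of a type and less RNA per cell cannot be told apart.

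**Figure D2:**
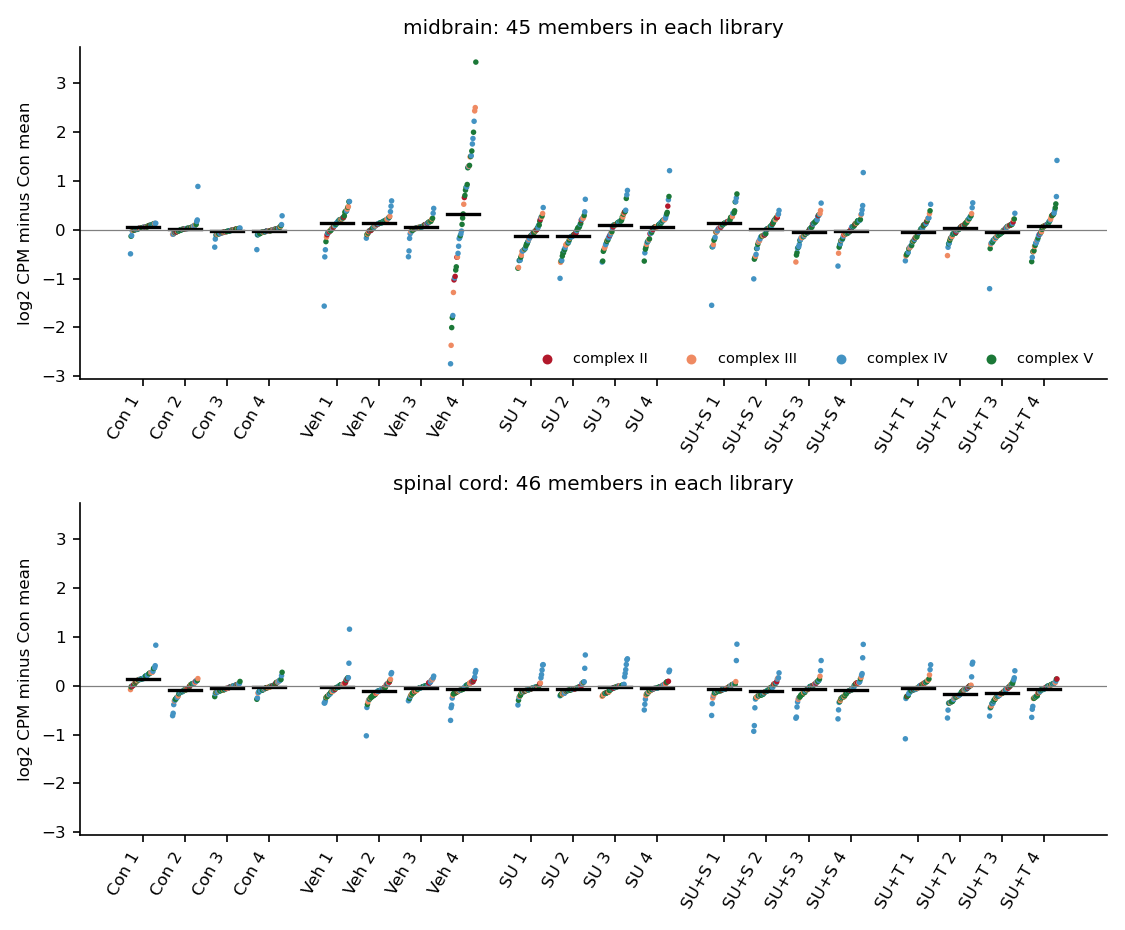
Difference of each tested member's log2 CPM from its Con mean in the same tissue, by library, in the midbrain (above, 45 members) and the spinal cord (below, 46 members). Points are members coloured by complex and bars are medians. The points of midbrain MPTP-Veh replicate 4 spread far in both directions, unlike those of every other library.

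The first comparison asked what MPTP did to the members. In the midbrain, none of the 45 tested members passed edgeR's quasi-likelihood test at an adjusted p below 0.05 with a change over 1.5-fold, the call used throughout. Of all 16629 genes, 0.0180% were called. 20 members had an unadjusted p below 0.05, against 23.7% of genes, and DESeq2 called 7, against 2.68% of genes, while limma-voom called 0. 28 members were higher and 17 lower in MPTP-Veh, with a median log2 difference of 0.14 against 0.00 for all genes. Without MPTP-Veh replicate 4 none was called either (0.00594% of genes), and 34 of the 45 were higher, with a median of 0.12. Without MPTP-Veh replicate 3, 9 members and 6.47% of genes were called.

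15 members lay above all 4 Con libraries in all 4 vehicle libraries, and none lay below, where 12.4% of all genes did not overlap in either direction. Cox5a, a matrix-facing subunit of complex IV, had 93.0, 88.0, 84.0 and 81.9 CPM in Con and 129, 112, 109 and 293 CPM in MPTP-Veh. The vehicle libraries were thus all higher, and the highest was replicate 4. Its log2 difference of 0.89 (SE 0.24) had an adjusted p of 0.130, the smallest of the members, which it shared with Uqcrh, Atp5l, Atp5o and Atp5h at 0.61, 0.62, 0.41 and 0.41. Atpif1, the inhibitor that stops ATP synthase from running backwards and hydrolysing ATP, differed by only 0.12 on the log2 scale.

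SUEHP after MPTP was set against MPTP alone to ask what the treatment changed. In the midbrain, 11 of the 45 members fell and none rose by the call, where 13.5% of all genes were called and 9.10% were called lower. By adjusted p alone, 16 were lower and 2 higher, against 20.1% of genes in either direction, 12.8% lower and 7.38% higher. The median log2 difference of the members was -0.34 and that of all genes 0.00. 5 members lay above and 12 below MPTP-Veh without overlap, where 21.9% of all genes did not overlap in either direction. 4 of 8 tested members were called in complex III, 3 of 15 in complex IV, 4 of 18 in complex V and none of 4 in complex II. A fit of only the 8 libraries of the 2 groups called no member and no gene. Without MPTP-SU replicate 1 or 2, 6 members were called, against 6.71% and 3.66% of genes. Without MPTP-Veh replicate 4, the calls were Atp5h, Atpif1 and Atp5k, all lower, where 3.40% of genes were called. By adjusted p alone, a reading chosen after seeing the data, 12 were then lower and 3 higher, against 14.6% of genes in either direction, and the median was -0.16 against 0.02 for all genes.

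In complex V, the clearest member was Atpif1. It had 201, 182, 183 and 179 CPM in Con, 197, 191, 189 and 233 CPM in MPTP-Veh, and 121, 120, 119 and 119 CPM in MPTP-SU. The 4 SUEHP libraries agreed closely and lay far below every Con and vehicle library. Its mean of 120 ± 0.734 CPM in MPTP-SU and 202 ± 20.5 in MPTP-Veh (SD, n = 4 libraries each) differed by -0.76 on the log2 scale (SE 0.098, adjusted p = 0.00138). Without MPTP-Veh replicate 4 the log2 fold change was -0.68 (SE 0.084, adjusted p = 9.47e-05). With GC content and length trends removed it was -0.40 (adjusted p = 0.0153), under the 1.5-fold minimum, and in a fit of only the 8 libraries its adjusted p was 0.216, the largest of all alternatives, which ran down to 6.06e-11.

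Atp5h, subunit d of the peripheral stalk that holds the catalytic head still, behaved alike. Its CPM were 249, 246, 236 and 237 in Con, 310, 278, 272 and 424 in MPTP-Veh and 184, 182, 178 and 183 in MPTP-SU. SUEHP libraries were below both other groups without overlap. The log2 fold change to MPTP-Veh was -0.82 (SE 0.12, adjusted p = 0.00161), and -0.66 (SE 0.076, adjusted p = 7.8e-05) without replicate 4. Atp5k, subunit e of the membrane part where ATP synthase dimers meet, had 89.2, 89.3, 87.1 and 84.9 CPM in Con, 100, 91.9, 91.9 and 248 in MPTP-Veh and 50.5, 60.1, 65.6 and 74.1 in MPTP-SU. The SUEHP group again did not overlap with the others but was more spread. The difference was -1.09 on the log2 scale (SE 0.24, adjusted p = 0.0112), and -0.60 (SE 0.12, adjusted p = 0.00322) without replicate 4. Atp5j2, subunit f, was the fourth call of the complex, at -0.94 (adjusted p = 0.0148), and was -0.45 without replicate 4. The catalytic β subunit Atp5b was lower by adjusted p only, at -0.37 (adjusted p = 0.0483), and did not pass without replicate 4, at -0.20 (adjusted p = 0.1345). Of the c-ring genes, Atp5g2 was at -0.35 (adjusted p = 0.0369) and at -0.36 (adjusted p = 0.03404) without replicate 4, but at 0.07 with GC and length trends removed. Atp5g3 and Atp5g1, at -0.21 and -0.03, did not pass and were at 0.01 and 0.03 without that library.

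**Figure D3:**
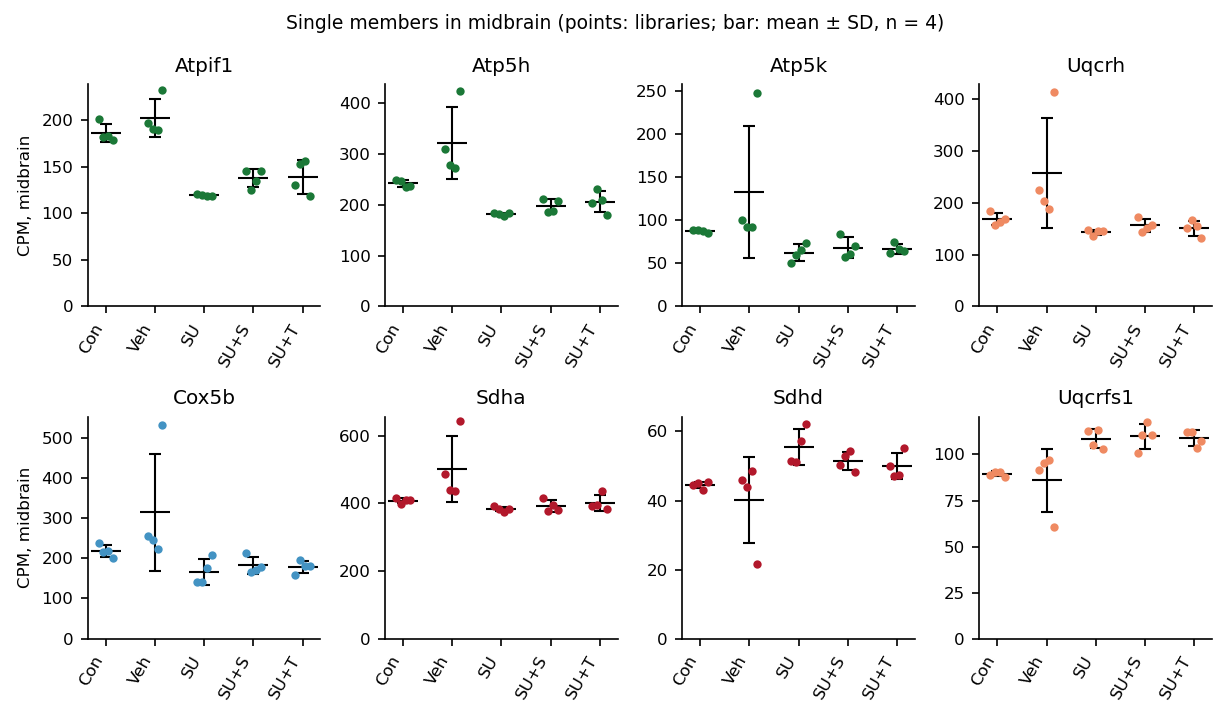
CPM of 8 members in the midbrain by group, with points for libraries, a horizontal bar for the mean and error bars for the SD (n = 4). Atpif1 and Atp5h lie in MPTP-SU below every Con and MPTP-Veh library, Sdhd and Uqcrfs1 above them, and the point farthest from the others in MPTP-Veh is replicate 4.

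In complex III, some small subunits fell, while a core subunit and the iron-sulphur protein were higher by adjusted p alone. Uqcrh, the acidic hinge protein beside cytochrome c1, had 225, 203, 188 and 414 CPM in MPTP-Veh and 147, 135, 145 and 146 CPM in MPTP-SU, with Con between at 183, 157, 163 and 170. The SUEHP libraries were the lowest of the 3 groups without overlap. It differed by -0.85 on the log2 scale (SE 0.18, adjusted p = 0.00857), and -0.52 without replicate 4, then under the 1.5-fold minimum. Uqcr11, a small accessory subunit, had 74.8, 74.5, 62.4 and 364 CPM in MPTP-Veh and 37.3, 40.2, 49.3 and 66.8 in MPTP-SU, so that the groups overlapped. Its fold change of -1.57 (SE 0.41, adjusted p = 0.0188) became -0.54 without replicate 4. Uqcrq, another small subunit, was at -1.26 (SE 0.36, adjusted p = 0.0246) and -0.39 without that library. Uqcrc1, a core subunit named here after its values were seen, was the fourth call, at -0.73 (adjusted p = 0.0425) with overlapping groups, and did not pass without replicate 4, at -0.27 (adjusted p = 0.2003). The opposite sign was seen for its partner Uqcrc2, at 0.52 (adjusted p = 0.0442, and 0.30 with an adjusted p of 0.007071 without replicate 4), and for Uqcrfs1, the Rieske iron-sulphur protein that takes electrons from ubiquinol. Uqcrfs1 had 91.7, 95.1, 96.8 and 60.5 CPM in MPTP-Veh and 113, 105, 113 and 103 in MPTP-SU. All 4 SUEHP libraries were higher, by 0.33 on the log2 scale (SE 0.11, adjusted p = 0.0446), and 0.20 without replicate 4, still with an adjusted p below 0.05.

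In complex IV, 3 subunits were called. Cox5b, a zinc-binding subunit on the matrix side, had 256, 245, 222 and 532 CPM in MPTP-Veh and 140, 140, 176 and 207 CPM in MPTP-SU. The groups did not overlap, though SUEHP replicate 4 came close to the lowest vehicle library. On the log2 scale it differed by -0.92 (SE 0.21, adjusted p = 0.0122), and -0.54 without replicate 4. Cox7a2l was at -0.94 (SE 0.26, adjusted p = 0.0225) and the main isoform Cox4i1 at -0.83 (SE 0.24, adjusted p = 0.0275). Without MPTP-Veh replicate 4 these were -0.34 and -0.34, Cox4i1 with an adjusted p of 0.0591. Other common isoforms did not pass: Cox6a1 was at -0.02, Cox6b1 at 0.00, Cox8a at -0.04, Cox7a2 at 0.17 and Cox7b at 0.17. Without replicate 4 they were at -0.07, -0.10, -0.07, 0.14 and -0.12, so that Cox7b changed sign. The rare isoforms Cox4i2, Cox6a2, Cox6b2 and Cox7a1 were at -1.05, 1.21, -0.57 and -0.34, also not passing, from a few CPM each, and at -0.24, 1.03, -0.24 and -0.26 without replicate 4.

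Complex II, which also works in the citric acid cycle, split by subunit. Sdha, which oxidises succinate, had 415, 396, 410 and 409 CPM in Con, 486, 440, 437 and 642 in MPTP-Veh and 391, 382, 374 and 384 in MPTP-SU. SUEHP libraries were below both groups by a small margin, at a log2 fold change to MPTP-Veh of -0.39 (SE 0.10, adjusted p = 0.0199), under the 1.5-fold minimum, and -0.25 without replicate 4. The anchor Sdhd went the other way: it had 46.0, 43.9, 48.7 and 21.5 CPM in MPTP-Veh and 51.4, 51.0, 57.3 and 62.2 CPM in MPTP-SU. These groups did not overlap either, but the log2 fold change of 0.47 had an adjusted p of 0.0525. Without replicate 4 it was 0.27 with an adjusted p of 0.03. Sdhb and the other anchor Sdhc had log2 fold changes of 0.23 and 0.09, neither passing, and of 0.04 and -0.03 without replicate 4.

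**Figure D4:**
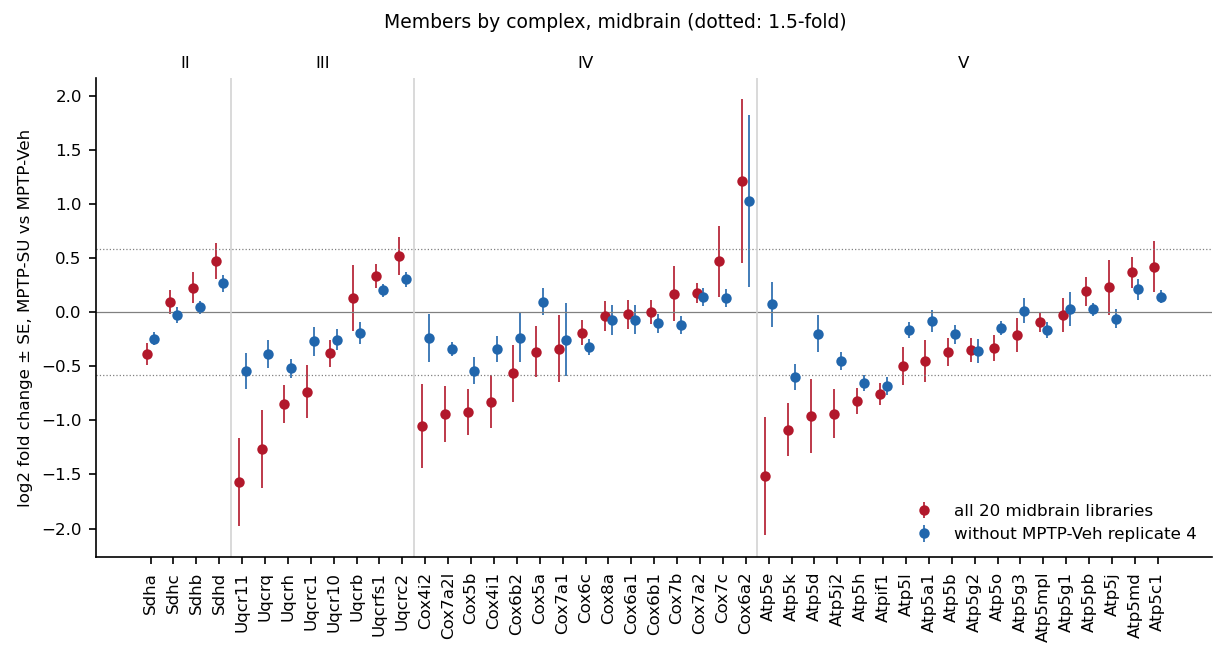
Log2 fold change (± SE) of each tested member in the midbrain, MPTP-SU against MPTP-Veh, by complex, from all 20 midbrain libraries (red) and without MPTP-Veh replicate 4 (blue). Blue points lie nearer to 0 for most members. Atpif1, Atp5h and Atp5k, called in both fits, stay beyond the lower dotted 1.5-fold line, and Cox6a2, not called, stays beyond the upper one.

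The SUEHP libraries were not uniform. Several members were lower in replicates 1 and 2 than in 3 and 4, among them Cox8a at 153, 158, 227 and 229 CPM and Cox6a1 at 133, 145, 192 and 203 CPM. Members called lower against MPTP-Veh were also split: Cox4i1 had 271, 273, 346 and 376 CPM and Uqcrc1 141, 159, 208 and 204 CPM. Uqcrq, Uqcr11, Cox5b, Cox7a2l and Atp5k were split in the same direction. Dopaminergic marker sums in the same libraries were 442, 446, 614 and 740 CPM, within the range of 430 to 796 CPM over Con and MPTP-Veh. Gm26917, a transcript of uncertain identity, took 6.88%, 7.24%, 3.84% and 14.3% of the counts in these libraries, against 0.563% to 1.95% in Con and 0.838% to 10.3% in MPTP-Veh. Across the members, the rank correlation of GC content with the difference from Con was -0.53, -0.47, -0.21 and 0.01 in the 4 SUEHP libraries. Atpif1, Atp5h and Uqcrh did not show the split between replicates. The part of dopaminergic cell content, of Gm26917 and of GC content in it was not tested.

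Against Con, the question was whether members in MPTP-SU lay outside the level of untreated midbrain. Only Atpif1 was called, at -0.64 (SE 0.098, adjusted p = 0.00684), where 0.764% of all genes were called and 0.613% were called lower. Its mean was 120 ± 0.734 CPM in MPTP-SU and 186 ± 9.99 in Con (SD, n = 4 each). With GC content and length trends removed it was at -0.51 (adjusted p = 0.0183), under the 1.5-fold minimum. Atp5h followed at -0.41 with an adjusted p of 0.0832. 7 members lay above and 9 below Con without overlap, where 19.6% of all genes did not overlap. In a fit of the 8 libraries alone, read by adjusted p and chosen after seeing the data, 5 members were lower (Atpif1, Atp5h, Atp5k, Atp5j2 and Uqcrh) and 3 higher (Cox5a, Uqcrfs1 and Sdhd), against 7.69% and 6.26% of genes.

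The CB1 antagonist and the PPARγ inhibitor were given to ask whether they undo what SUEHP does. No member differed by the call between MPTP-SU+S or MPTP-SU+T and MPTP-SU in edgeR, DESeq2 or limma-voom, where 0% of all genes were called in both comparisons. None and 1 member, respectively, had an unadjusted p below 0.05, against 1.65% and 1.70% of genes. These p-values rest on a spread that MPTP-Veh replicate 4 also enters. 3 members with the CB1 antagonist and none with the PPARγ inhibitor did not overlap with MPTP-SU, against 2.15% and 1.96% of genes. With the CB1 antagonist, 37 of 45 members were higher, with a median log2 difference of 0.07 against 0.00 for all genes, and with the PPARγ inhibitor 32 were higher, with a median of 0.04. Atpif1 had 146, 125, 134 and 145 CPM in MPTP-SU+S and 130, 153, 156 and 118 CPM in MPTP-SU+T. All 4 libraries with the CB1 antagonist were thus above those of MPTP-SU, whereas those with the PPARγ inhibitor overlapped. The log2 differences were 0.20 and 0.22 (SE 0.098 for both, adjusted p = 1), and the values of both groups stayed below every Con library.

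Set against the same MPTP-Veh libraries, 7 members were lower in MPTP-SU+S (5.66% of genes called, 4.76% lower) and 7 in MPTP-SU+T (3.80% called, 3.23% lower). In the same order, Atp5h was at -0.70 and -0.64, Atp5k at -0.96 and -0.99, Uqcrh at -0.72 and -0.77, Cox5b at -0.78 and -0.81 and Uqcr11 at -1.58 and -1.56. The others called were Uqcrq and Atp5j2. Atpif1, at -0.56 (adjusted p = 0.00661) and -0.54 (adjusted p = 0.0191), was just under the 1.5-fold minimum. Without MPTP-Veh replicate 4 no member was called in either comparison (1.41% and 0.814% of genes). Atp5h was then at -0.53 and -0.48, and Atpif1 at -0.48 (adjusted p = 0.00192) and -0.46 (adjusted p = 0.00503). Leaving out MPTP-Veh replicate 1, 2 or 3 gave 11 to 15 calls, with 8.61% to 14.7% of genes called. Leaving out MPTP-SU+S replicate 1 left 5 calls (3.58% of genes), and leaving out replicate 2, 3 or 4 left 1 (0.408% to 0.959% of genes). Leaving out MPTP-SU+T replicate 1, 2, 3 or 4 left 0, 1, 3 and 0 (0.0177% to 3.02% of genes). The treated groups share the vehicle libraries, so these columns are not independent of each other or of the SUEHP comparison.

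In the spinal cord, none of the 46 tested members was called by edgeR in any of 7 comparisons, and DESeq2 and limma-voom called none either. The share of all genes called was 0% in 6 of these comparisons and 0.0240% for MPTP-SU+T against MPTP-SU. Unadjusted p-values below 0.05 numbered 11 for MPTP-Veh against Con (12.8% of genes), 3 for MPTP-SU against MPTP-Veh (3.81%) and 6 for MPTP-SU against Con (9.17%). With the CB1 antagonist they numbered 1 against MPTP-SU (5.49% of genes) and 1 against MPTP-Veh (4.56%), and with the PPARγ inhibitor 12 (12.1%) and 13 (11.9%). The smallest adjusted p was 0.172, for Sdhd at -0.21 between MPTP-SU+T and MPTP-Veh. Atpif1 had 192, 152, 157 and 171 CPM in Con, 157, 147, 151 and 158 in MPTP-Veh and 156, 157, 152 and 156 in MPTP-SU. These groups overlapped, and Con replicate 1 was the highest, as it was for Atp5h, with 277, 220, 219 and 223 CPM in Con and 203 to 223 CPM in the MPTP-Veh and MPTP-SU libraries. The spread was smaller than in the midbrain: the common dispersion was 0.00710 in the spinal cord and 0.0512 in the midbrain. The midbrain value includes MPTP-Veh replicate 4. Over all tested genes, the SD of the log2 difference from Con was 1.20 in that library. It was 0.245 to 0.607 in the other midbrain libraries and 0.240 to 0.366 in the spinal cord.

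The difference between tissues in the response was tested directly. This test and the comparison of levels below take the spread over both tissues, with a common dispersion of 0.0293. That lies below the 0.0512 of the midbrain and above the 0.00710 of the spinal cord. The midbrain spread may thus be understated, and these p-values are not comparable with those of the single-tissue fits. For MPTP-SU against MPTP-Veh, 11 members had a lower log2 fold change in the midbrain than in the spinal cord and none a higher one, where 12.1% of genes were called and 8.14% lower. Atpif1 differed by -0.77 (SE 0.11, adjusted p = 0.000118), Atp5h by -0.83 (adjusted p = 0.000228), Atp5k by -1.23 (adjusted p = 0.00339), Uqcrh by -0.88 (adjusted p = 0.00406) and Cox5b by -1.03 (adjusted p = 0.00422). Without MPTP-Veh replicate 4, Atpif1 (-0.68), Atp5h (-0.66), Atp5k (-0.74) and Cox5b (-0.64) were still called, at a background of 3.90%. For MPTP-Veh against Con, 6 members had a higher log2 fold change in the midbrain (2.45% of genes called, 1.64% higher), led by Cox5a at 1.25 (SE 0.27, adjusted p = 0.0346). In the spinal cord Cox5a had 132, 104, 110 and 105 CPM in Con and 90.6, 82.5, 92.2 and 82.3 CPM in MPTP-Veh. It was thus lower there without overlap, though not called, and its tissue difference is not a midbrain rise alone. Without replicate 4 Cox5a alone was called, at 0.81 (SE 0.18, adjusted p = 0.0264), against 0.550% of genes. The second count moved with the share of all genes called, from 0 with 0.00567% to 18 with 15.4% of genes. It was 0 without midbrain Con replicate 2 or 4, spinal cord Con replicate 1 or any 1 spinal cord MPTP-Veh library, 2 or 3 without midbrain Con replicate 1 or 3 or spinal cord Con replicate 4, 10 without spinal cord Con replicate 2, and 16 to 18 without midbrain MPTP-Veh replicate 1, 2 or 3. The first rose to 18 without midbrain MPTP-Veh replicate 2 or 3, with 20.0% and 21.4% of genes called.

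Levels in the tissues were compared over all 20 libraries each, on a joint scale. 41 of 46 tested members were higher in the midbrain, with a median log2 difference of 0.23 against 0.02 for all genes, but most differences were small. By adjusted p alone 30 were higher and 1 lower, against 66.2% of genes in either direction, 34.5% higher and 31.7% lower. By the call 3 were higher and 1 lower, against 22.0% of genes, 9.80% higher and 12.2% lower. Without midbrain MPTP-Veh replicate 4 the background was 22.0% and 3 members were called, Atp5e having been lost.

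Among the common subunits, Cox8a, the small subunit VIII of complex IV, had a median of 194 CPM in the midbrain (153 to 234) and 146 CPM in the spinal cord (139 to 162). The ranges overlapped at their edges, and the log2 difference was 0.42 (SE 0.046, adjusted p = 6.73e-10). Cox7a2 was higher by 0.30 (adjusted p = 1.09e-08), and in complex V Atp5md, also known as DAPIT, by 0.43 (adjusted p = 4.21e-09) and the stalk protein Atp5o (OSCP) by 0.29 (adjusted p = 3.05e-07). Uqcrfs1 and Uqcrc2 of complex III were higher by 0.34 (adjusted p = 2.44e-09) and 0.29 (adjusted p = 5.61e-05). In complex II, Sdhd and Sdhb were higher by 0.26 (adjusted p = 9.11e-05) and 0.22 (adjusted p = 0.000128). Sdha, at 0.05, and Sdhc, at 0.07, did not pass, and neither did Atpif1, at -0.03 with medians of 150 and 157 CPM in the midbrain and spinal cord. The midbrain median includes the SUEHP groups, where Atpif1 was lower. Its Con means were 186 CPM in the midbrain and 168 CPM in the spinal cord, each on its own tissue's scale, with overlapping libraries.

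The calls over 1.5-fold were mostly rare isoforms. Cox6a2 had a median of 2.03 CPM in the midbrain (0.467 to 7.15) and 0.384 CPM in the spinal cord (0 to 1.45), a log2 difference of 2.53 (SE 0.37, adjusted p = 3.07e-07). It varied more than 10-fold among midbrain libraries of all groups. Cox8b was the only member called lower in the midbrain, at 0.248 against 0.492 CPM (log2 difference -1.17, SE 0.29, adjusted p = 0.000765). It held 0 to 9 counts in each midbrain library and was too low to test in the midbrain alone. Its Con means were 0.275 CPM in the midbrain and 0.375 CPM in the spinal cord, each on its own tissue's scale. Cox4i2 was higher at 2.13 against 1.36 CPM (0.80, SE 0.16, adjusted p = 5.37e-05), and Atp5e, the ε subunit, at 46.1 against 39.0 CPM (0.64, SE 0.18, adjusted p = 0.0025). In the 8 Con libraries alone Cox6a2 was at 2.51 (adjusted p = 0.00312), but Cox4i2 was at -0.07 and Atp5e at -0.05. Skeletal muscle markers were lower in the midbrain for 14 of 15 genes, with a median log2 difference of -3.30, and oligodendrocyte markers for 10 of 10, with a median of -0.39. Their part in the members' tissue differences was not tested.

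**Figure D5:**
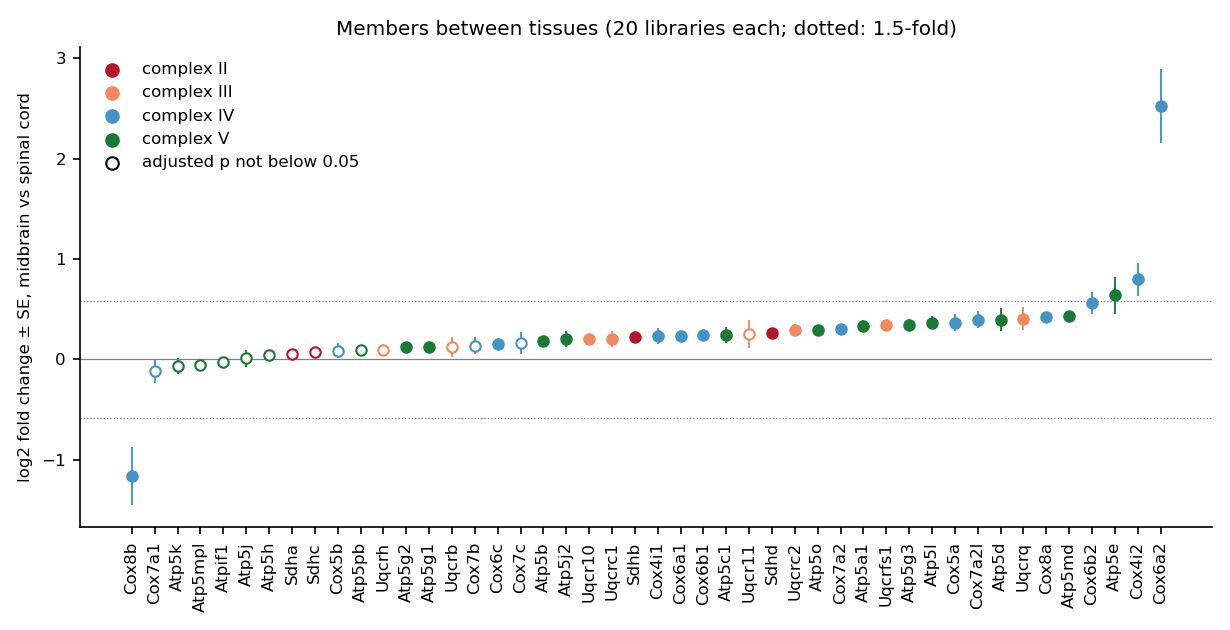
Log2 fold change (± SE) of each tested member between the midbrain and the spinal cord over 20 libraries each, coloured by complex, with open points where the adjusted p was not below 0.05. Most members lie between 0 and 0.5, and Cox6a2, Cox4i2 and Atp5e lie above the dotted 1.5-fold line and Cox8b below it.

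Other genes of the same system were read from fixed lists in the comparison of MPTP-SU with MPTP-Veh in the midbrain, against the same background of 13.5%. Of complex I subunits, the entry point for electrons from NADH, 11 of 38 were called, all lower, with a median log2 fold change of -0.46, and without MPTP-Veh replicate 4 the count was 5 and the median -0.27. The 6 subunits of complexes III to V encoded in the mitochondrion had none called and a median of 0.41, or 0.09 without replicate 4. Outside energy metabolism, 20 of 83 cytosolic ribosomal protein genes were called lower (median -0.29) and 9 of 37 proteasome genes (median -0.34). Without replicate 4 these were 5 (median -0.22) and 1 (median -0.20), so that a lower median was shared by the other lists of nuclear genes for large complexes.

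Of the assembly factors, Uqcc2 and Uqcc3, which help to build complex III, were called lower at -0.91 (adjusted p = 0.0114) and -1.23 (adjusted p = 0.0206), 2 of 9 tested. For complex IV, 3 of 25 fell: the copper chaperone Cox17 by 0.87 on the log2 scale (adjusted p = 0.00466), Pet100 by 1.21 (adjusted p = 0.0142) and the haem A synthesis enzyme Cox10 by 0.65 (adjusted p = 0.0202). A single factor, Cox11, which delivers copper, rose by 0.64 (adjusted p = 0.00927). Sdhaf1 was the one complex II factor called, of 4, at -0.70 (adjusted p = 0.0433), and none of 5 was called for complex V. Without MPTP-Veh replicate 4, 2 complex IV factors and none of the others were called. Cyc1 and Cycs, the cytochromes c1 and c, had log2 fold changes of 0.12 and 0.29 and did not pass, and Ndufa4 was at 0.37 (adjusted p = 0.0417), under the 1.5-fold minimum. Of 16 transcriptional regulators of mitochondrial genes 1 was called, Mef2a at 0.89 (adjusted p = 0.0464), and none without replicate 4.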

How the data were processed

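RNA from 40 libraries (10 groups of 4) was poly(A)-selected and sequenced as 100-base read pairs. The authors deposited estimated counts per gene symbol, which Salmon gives. The submitters' processing notes name fastp, STAR, Salmon, GATK and build GRCm39, with versions not given in the sources used here. The counts were read as whole numbers from 40 files, 1 for each library, and joined. Each tissue was fitted with edgeR 4.0.16 (R 4.3.3, limma 3.58.1): low counts were filtered with filterByExpr, libraries were scaled by TMM, and a quasi-likelihood test was run over all 5 groups, then over both tissues for tissue differences. P-values were adjusted by Benjamini and Hochberg over all genes tested, and a call needed an adjusted p below 0.05 and a change over 1.5-fold. Alternatives were DESeq2 1.42.0, limma-voom, other scalings and filters, the replicate number as a block, removal of GC and length trends, fits of the compared groups alone, and each library left out. In simulated counts for MPTP-SU against MPTP-Veh, the midbrain fit called 66 of 99 genes changed 2-fold and 95 of 100 changed 4-fold, with 4 false calls among 16425 genes. The simulated counts were drawn gene by gene, without a library that stood apart and without GC or length trends. They therefore do not give the rate of false calls in the measured libraries. Figures used Python 3.11.15 and matplotlib 3.10.9.

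The genes named were, per complex, the 3 with the smallest p for MPTP-SU against MPTP-Veh in the midbrain and the 2 with the smallest p between tissues, all Sdh genes, Atpif1, the isoform sets, and up to 5 called members in each other comparison. Others, namely those shown for library splits or non-passing values, were chosen after their values were seen. The members and lists were chosen with earlier results of these data known. Totals per library are given with the results. In the spinal cord the same simulation recovered 88 of 100 genes changed 2-fold.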

Additional observations from a re-analysis of the deposited data

Results flagged for a closer look

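Within groups of 4 libraries, a value was singled out when its gap to the nearest other library was a large part of the group's whole range. Named members were read this way in the midbrain Con, MPTP-Veh and MPTP-SU groups. Of 39 sets of 4 libraries, 10 held a value singled out. Most of these members were named for a small p in the same libraries, and members of the same library are not independent. The count therefore has no chance rate to be set against. 9 of the 10 values belonged to MPTP-Veh replicate 4. This library was the highest of its group for Uqcrh (414 CPM), Uqcr11 (364 CPM), Uqcrq (479 CPM), Cox5b (532 CPM), Cox7a2l (478 CPM), Cox4i1 (1041 CPM), Atpif1 (233 CPM) and Atp5k (248 CPM), and the lowest for Sdhb (59.8 CPM). The remaining value was Uqcrh in MPTP-SU replicate 2, the lowest of its group at 135 CPM.

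The log2 fold change between MPTP-SU and MPTP-Veh differed between midbrain and spinal cord, by a test of that difference, for 11 members. The midbrain minus spinal cord difference was -0.77 for Atpif1, -0.83 for Atp5h, -1.23 for Atp5k, -0.88 for Uqcrh, -1.03 for Cox5b and -0.95 for Atp5j2. It was -1.59 for Uqcr11, -1.77 for Cox4i2, -1.23 for Uqcrq, -0.89 for Cox7a2l and -0.79 for Cox4i1. Between MPTP-Veh and Con, the same test passed for Cox5a (1.25), Uqcrh (0.81), Cox4i2 (2.01), Atp5l (0.79), Atp5j2 (0.88) and Atp5e (2.03). All of these use midbrain MPTP-Veh replicate 4. Without it 4 members of the first set (Atpif1, Atp5h, Atp5k and Cox5b) and Cox5a of the second were called.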

How the results depend on the processing

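For 13 members, namely the 3 per complex named first and the remaining Sdh gene, MPTP-Veh against Con and MPTP-SU against MPTP-Veh in the midbrain were read under every other setting: 429 values kept direction and side of the threshold, 28 lost the call, 8 gained it and 3 changed sign. The 3 were, for MPTP-Veh against Con in the midbrain, Sdhd without MPTP-Veh replicate 4 (0.0545, and down to -0.2592 without replicate 3) and Atpif1 with GC and length trends removed (-0.11), and, for MPTP-SU against MPTP-Veh, Sdhc without that library (-0.0259, and up to 0.159 without replicate 3). Over all 45 members, 31 of 809 values for MPTP-SU against MPTP-Veh changed sign, in 14 members (Cox7b, Atp5g1, Atp5g2 and Atp5g3 among them), of which none was called. The causes were not tested.

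For MPTP-SU against MPTP-Veh in the midbrain, the 11 calls became 18 by adjusted p alone and 0 in a fit of the 8 libraries, where no gene at all was called. Leaving out 1 library gave 3 (without MPTP-Veh 4) to 16, and 6 without MPTP-SU 1 or MPTP-SU 2. For MPTP-SU against Con, leaving out 1 library gave 1 throughout, and removing GC and length trends gave 0. For MPTP-Veh against Con, DESeq2 called 7, and leaving out 1 library gave 0 to 9. Against MPTP-Veh, 7 members were called in MPTP-SU+S (limma-voom 3, 8 libraries 0, leaving out 1 library 0 to 13) and 7 in MPTP-SU+T (DESeq2 12, library size alone 1, limma-voom 1, 8 libraries 0, leaving out 1 library 0 to 15). These counts were 11 to 13 and 13 to 15 without MPTP-Veh 1, 2 or 3, and 0 for both without MPTP-Veh 4. The count for MPTP-SU+S was 5 without MPTP-SU+S 1 and 1 without MPTP-SU+S 2, 3 or 4. That for MPTP-SU+T was 0, 1, 3 and 0 without MPTP-SU+T 1 to 4.

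Between tissues, the 4 calls became 31 by adjusted p alone, 1 with at least 10 counts per library and 2 in the 8 Con libraries, and 3 without MPTP-Veh 4. For the tissue difference of MPTP-Veh against Con, 6 became 13 by DESeq2, 0 by library size alone, 1 without a filter, 10 with at least 10 counts, 0 by limma-voom and 0 in 16 libraries, with 0 to 18 when 1 library was left out. For that of MPTP-SU against MPTP-Veh, 11 became 1 in 16 libraries and 4 to 18.

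In no comparison did all 4 same-numbered pairs of libraries correlate above 0.1 in their deviations, so the numbers were not taken as pairs. In the midbrain, 3 of 4 pairs were above it for MPTP-SU against MPTP-Veh (0.231, 0.179 and 0.261) and for MPTP-SU+T against MPTP-SU and MPTP-Veh. With the replicate number as a block, 11 members were called for MPTP-SU against MPTP-Veh, 4 for MPTP-SU+S and 1 for MPTP-SU+T against MPTP-Veh, and 0 for the tissue difference of MPTP-Veh against Con.

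With 4 libraries a group, p-values rest on few samples, and no exact test over libraries can go below 0.0286. Reads shared with pseudogenes limit single members.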
